A study of Mus musculus with 8 samples.

Results

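Mouse embryonic stem cells without EED were set against wild type embryonic stem cells across the whole array. The comparison was chosen by the genotype labels alone and used 4 of the 8 arrays of the series, 2 of Eed-/- cells and 2 of wild type cells, and 22626 probe sets that are not array controls. The other 4 arrays were 2 of Ezh2-/- and 2 of Jarid2-/- cells, which served for direct contrasts with Eed-/-. All 4 groups carry the strain label of the CJ7 line, received no treatment, and were cultured with leukemia inhibitory factor (1000 U/ml), which holds mouse stem cells undifferentiated, and serum at 15%. Total RNA was turned into biotin-labelled cRNA and hybridized to short-oligonucleotide expression arrays that read the 3' end of transcripts. The labels give neither the deleted part of Eed nor the number of clones, and a genotype is represented by its own line, so genotype and line cannot be told apart. Separate cultures are not stated for the arrays of a genotype, and the p-values therefore measure only how far these arrays spread.

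EED is the subunit of Polycomb repressive complex 2 (PRC2) that binds the methylated tail of histone H3 and holds the complex together with SUZ12 and the methyltransferases EZH2 or EZH1. The complex places methyl groups on lysine 27 of histone H3, a mark of silent genes, and in stem cells it sits mainly on CpG-rich promoters of developmental regulators. It is also known for roles at imprinted genes, which are read from only the maternal or the paternal copy, and at the inactive X chromosome.

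The 6 promoters printed here belong to genes with large changes that are described below, and they differ in CpG content.
They are RefSeq sequences on GRCm38.p6, from 250 bases before the annotated start to 50 bases after it, written 5′ to 3′ on the gene's strand with every CpG in capitals.
The first 4 belong to genes that were higher in Eed-/- cells and the last 2 to genes that were lower.
Olig2 (chr16:91225300-91225599, forward strand): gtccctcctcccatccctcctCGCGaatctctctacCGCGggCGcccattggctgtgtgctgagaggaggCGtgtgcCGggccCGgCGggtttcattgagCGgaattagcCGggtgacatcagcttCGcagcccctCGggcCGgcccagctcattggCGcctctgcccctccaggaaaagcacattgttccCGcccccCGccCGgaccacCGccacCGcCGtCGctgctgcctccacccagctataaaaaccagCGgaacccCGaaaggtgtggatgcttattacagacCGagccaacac
Zic1 (chr9:91365719-91366018, reverse strand): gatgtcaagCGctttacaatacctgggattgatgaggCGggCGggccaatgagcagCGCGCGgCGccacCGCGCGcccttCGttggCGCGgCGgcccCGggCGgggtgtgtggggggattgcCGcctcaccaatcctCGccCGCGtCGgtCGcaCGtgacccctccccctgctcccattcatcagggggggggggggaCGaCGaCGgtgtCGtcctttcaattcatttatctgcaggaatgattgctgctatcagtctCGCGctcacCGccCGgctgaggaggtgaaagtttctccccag
Hoxa11 (chr6:52245761-52246060, reverse strand): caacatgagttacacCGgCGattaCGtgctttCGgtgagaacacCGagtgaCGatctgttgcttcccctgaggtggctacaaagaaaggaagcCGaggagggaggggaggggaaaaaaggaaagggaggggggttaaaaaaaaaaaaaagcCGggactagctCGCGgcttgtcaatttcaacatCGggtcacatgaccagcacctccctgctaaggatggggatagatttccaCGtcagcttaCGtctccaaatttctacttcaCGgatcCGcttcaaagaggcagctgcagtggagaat
Sycp1 (chr3:102936051-102936350, reverse strand): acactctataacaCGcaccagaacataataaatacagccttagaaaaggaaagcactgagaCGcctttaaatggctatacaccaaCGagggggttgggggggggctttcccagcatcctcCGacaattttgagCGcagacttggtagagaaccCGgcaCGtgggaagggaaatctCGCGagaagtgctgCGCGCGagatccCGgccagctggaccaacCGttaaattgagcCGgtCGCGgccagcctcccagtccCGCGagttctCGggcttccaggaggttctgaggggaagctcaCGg
Meg3 (chr12:109540746-109541045, forward strand): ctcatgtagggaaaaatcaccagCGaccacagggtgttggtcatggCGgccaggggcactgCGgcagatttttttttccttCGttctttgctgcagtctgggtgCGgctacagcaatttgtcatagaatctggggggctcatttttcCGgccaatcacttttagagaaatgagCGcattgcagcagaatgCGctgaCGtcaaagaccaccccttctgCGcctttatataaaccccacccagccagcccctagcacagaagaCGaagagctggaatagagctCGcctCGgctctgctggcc
Gbp2b (chr3:142594597-142594896, forward strand): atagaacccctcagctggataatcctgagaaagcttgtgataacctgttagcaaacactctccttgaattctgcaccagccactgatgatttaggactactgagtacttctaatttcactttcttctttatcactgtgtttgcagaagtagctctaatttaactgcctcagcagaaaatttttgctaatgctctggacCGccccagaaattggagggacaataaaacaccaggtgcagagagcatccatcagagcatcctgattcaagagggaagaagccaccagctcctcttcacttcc
The first 4 windows hold 25, 31, 15 and 21 CpG dinucleotides, with ratios of observed to expected CpG of 0.82, 0.97, 0.79 and 0.87. Meg3 holds 13 with a ratio of 0.60 and Gbp2b 1 with a ratio of 0.07. A ratio of 0.6 or more, a usual mark of CpG islands, occurred in 36.5% of the 27025 promoters of the same length in the table. The count is a description of these letters and says nothing of what binds there.

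Signal intensities were on a linear scale. The median per array lay between 322.9 and 351.5, and probe sets for a bacterial transcript, which serve as negative controls, gave 23.76 to 147.91 over the 8 arrays. A group mean below 147.91 is called under the controls here, and a fold against such a group is given as a lower bound with 147.91 in its place. Replicate arrays correlated across probe sets with r = 0.9956 in Eed-/- and r = 0.9938 in wild type cells, where probe sets are no independent replicates. The p-values of genes are from limma (two-sided, Benjamini-Hochberg over the 22626 probe sets, threshold 0.05), and all log2 differences were taken after adding 16 to the signal, which understates changes of dim genes.

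The targeted gene was measured first. Eed signal at the bright probe set was 3583 and 3638 in the Eed-/- arrays, against 10875 and 9665 in the wild type arrays. Both Eed-/- arrays lay far below both wild type arrays, and the difference was -1.50 on the log2 scale (SE 0.07, adjusted p = 9.6e-06). Eed signal was also lower than in Ezh2-/- cells, at a mean of 12584, and than in Jarid2-/- cells, at 10733 (log2 differences of -1.80 and -1.57, adjusted p = 1e-06 and 6.6e-06 by limma). The second Eed probe set read 38.9 and 45.1 in Eed-/- against 75.2 and 71.1 in wild type cells, all under the controls. A probe set that lies outside the deleted part would still read transcript, and where the deletion lies is not stated in the labels. The Jarid2-/- arrays had no lower Jarid2 signal than wild type, so they are used by their label only.

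In the whole comparison 4213 of 22626 probe sets (18.6%) passed the threshold, 1743 (7.7%) higher and 2470 (10.9%) lower in Eed-/- cells. With the brightest probe set standing for each of 12393 genes, 977 (7.88%) were higher and 1371 (11.1%) lower. Changes of at least 2-fold were more often increases, with 148 genes (1.19%) higher and 80 (0.646%) lower, or 254 (1.12%) and 145 (0.641%) of all probe sets. The median log2 difference over all genes was -0.06. Among the 977 higher genes, 131 had a wild type mean under the controls and 35 had both means there, as did 314 of the 1371 lower genes. The probe set count was 2158 without Eed-/- replicate 1, 1801 without Eed-/- replicate 2 and 2585 without wild type replicate 2, where the remaining array is assumed to vary like the other groups.

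**Figure D1:**
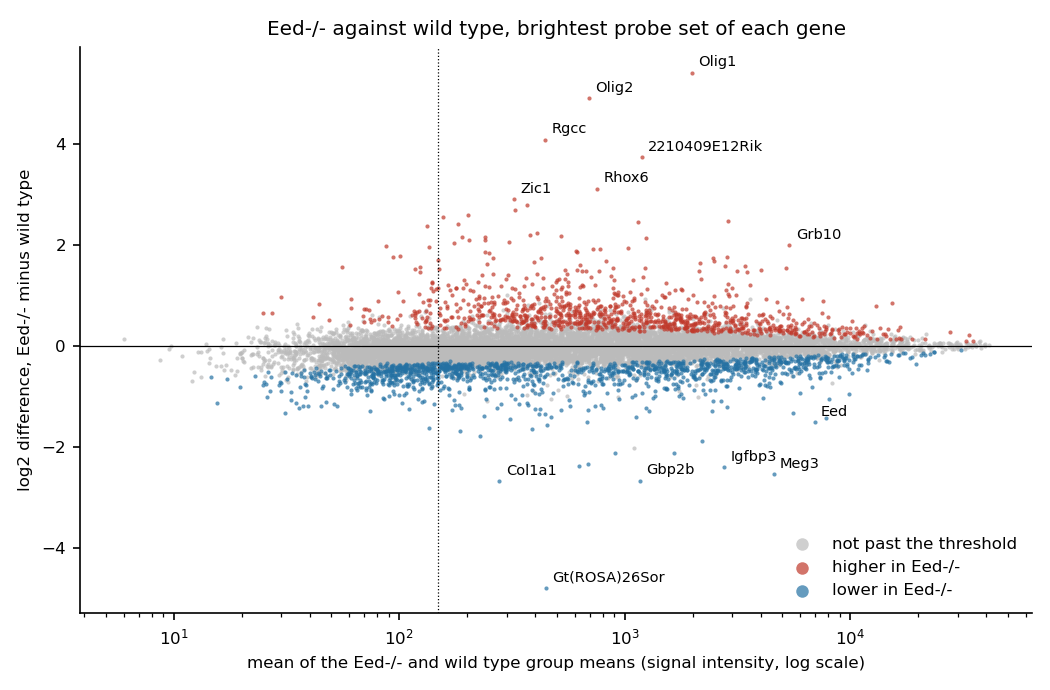
Each point is a gene. The horizontal axis is the mean of the Eed-/- and wild type group means (signal intensity, log scale) and the vertical axis the log2 difference, Eed-/- minus wild type. Red points were higher and blue points lower in Eed-/- at an adjusted p under 0.05, and the dotted line marks the highest negative control, 147.91. Olig1 and Olig2 stand above and Gt(ROSA)26Sor below the rest of the genes.

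The 4 largest increases were in genes whose wild type means were under the controls. Olig1, a transcription factor of the oligodendrocyte lineage, read 3807 and 3998 in Eed-/- cells against 57.7 and 100.4 in wild type cells, which is at least 26.4-fold higher (log2 5.4, SE 0.19, adjusted p = 2.6e-06). Its neighbour and paralogue Olig2 read 1321 and 1400.3 in Eed-/- against 30.2 and 29.8 in wild type, at least 9.2-fold higher (log2 4.90, SE 0.09, adjusted p = 3e-08). The arrays of the groups did not overlap for either gene, which the selection of the largest increases required. Rgcc, a regulator of the cell cycle, read 764 and 941 in Eed-/- cells against 25.6 and 46.6 in wild type cells, at least 5.76-fold higher (log2 4.08, SE 0.19, adjusted p = 8.8e-06). The riken transcript 2210409E12Rik read 1641 and 2822 in Eed-/- against 151 and 143 in wild type (log2 3.74, SE 0.23, adjusted p = 2.9e-05). Its Eed-/- arrays differed more from each other than those of the Olig genes but stayed far above both wild type arrays.

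Srgn, which encodes the core protein serglycin of secretory granules in blood cells, read 760.3 and 553 in Eed-/- cells against 74.0 and 87.0 in wild type cells (log2 2.79, adjusted p = 2.9e-05 by limma). Tchh, for the hair follicle protein trichohyalin, read 403 and 307 in Eed-/- against 58.7 and 34.1 in wild type (log2 2.59). Pmaip1, the p53 target also called Noxa that promotes cell death, was expressed in both groups, at 4716 and 5047 in Eed-/- against 909.7 and 825 in wild type, 5.63-fold higher (log2 2.47, SE 0.12, adjusted p = 1.1e-05). In each of these genes both Eed-/- arrays lay above both wild type arrays, which the selection of the largest increases required. Rpgrip1, known for its role in the connecting cilium of photoreceptors, read 1960.4 and 1927 in Eed-/- against 349.7 and 332 in wild type at its brightest probe set (log2 2.46), but only 2 of its 4 probe sets had that sign. Zfp386, a zinc finger gene, read 702 and 661 in Eed-/- against 175 and 99.0 in wild type (log2 2.23). Crxos, a homeobox gene, read 553 and 1201 in Eed-/- against 153 and 186 in wild type (log2 2.17, adjusted p = 0.0016 by limma).

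The deepest decrease was in Gt(ROSA)26Sor, the noncoding transcript of the widely used ROSA26 locus. It read 23.4 and 10.7 in Eed-/- cells, under the controls, against 915 and 835 in wild type cells, at least 5.91-fold lower (log2 -4.78, SE 0.18, adjusted p = 4.1e-06). It averaged 1127 in Ezh2-/- and 1080.5 in Jarid2-/- cells, and Eed-/- was lower than both (log2 differences of -5.13 and -5.08, adjusted p = 5.7e-07 and 2e-06 by limma). Of its 13 measured neighbours on chromosome 6 none was lower and 2 were higher, beside 11.1% and 7.88% of all genes. Srgap3 was higher in Eed-/- (306 and 271 against 117 and 132, log2 1.11, adjusted p = 0.0023 by limma) and so was Ogg1 (421 and 397 against 319 and 262, log2 0.48, adjusted p = 0.029). The other 11 did not pass, among them Thumpd3, an RNA methyltransferase subunit gene, at 3400 and 3429 in Eed-/- against 2848 and 3122 in wild type (adjusted p = 0.14). The Ogg1 call was lost without either Eed-/- array or wild type replicate 2, and only 1 of its 2 probe sets had that sign.

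Col1a1, a chain of type I collagen, read 42.9 and 89.9 in Eed-/- cells against 432 and 548 in wild type cells, at least 3.31-fold lower (log2 -2.67, SE 0.25, adjusted p = 0.0003). Col1a2, the other chain, read 165 and 268 in Eed-/- against 856 and 1471 in wild type (log2 -2.33, adjusted p = 0.00069). Igfbp3, which binds insulin-like growth factors, read 825 and 832 in Eed-/- against 6201 and 3157 in wild type (log2 -2.40, adjusted p = 0.00053). The wild type arrays of Igfbp3 differed by more than those of the collagens yet remained above both Eed-/- arrays, as the selection required. Krt19, an epithelial keratin, read 622 and 1317 in Eed-/- against 4054 and 2792 in wild type (log2 -1.87), and Acta1, skeletal muscle actin, 231 and 442 against 1810 and 1133 (log2 -2.11). Dpys, an enzyme of pyrimidine breakdown, read 601 and 614 in Eed-/- against 2409 and 2979 in wild type (log2 -2.11, adjusted p = 9.8e-05 by limma). Pdcl2, Plekha4, the zinc transporter gene Slc39a8 and Cpe, which encodes a carboxypeptidase that processes peptide hormones, complete the 14 largest decreases, with log2 differences between -1.77 and -1.51.

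**Figure D2:**
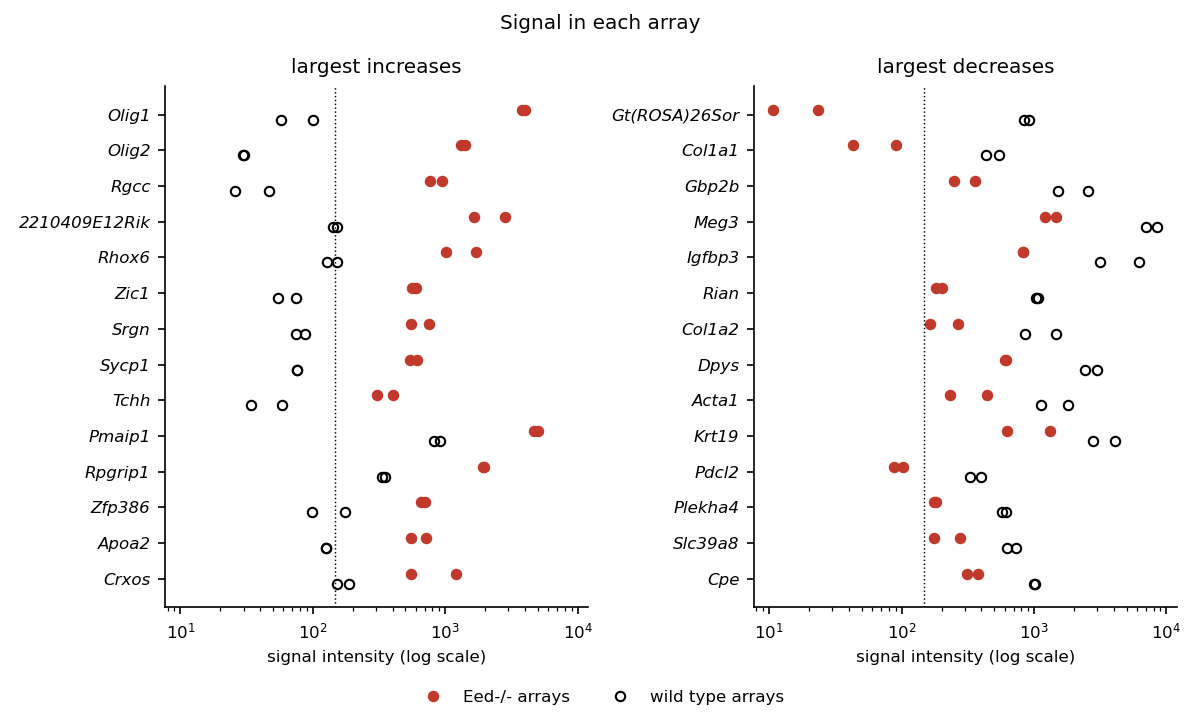
Signal intensity (log scale) in each array for the 14 largest increases (left) and the 14 largest decreases (right). Filled red points are the 2 Eed-/- arrays and open circles the 2 wild type arrays, and the dotted line is the highest negative control, 147.91. The groups do not overlap for any of these genes, which the selection required.

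At the brightest probe set none of the 11 measured PRC2 genes besides Eed passed the threshold, where 18.9% of all genes did. Dimmer probe sets of Rbbp4 and Aebp2 did pass as lower. That of Rbbp4 read 4047 and 4114 in Eed-/- against 5202 and 5146 in wild type (log2 -0.34, adjusted p = 0.0075 by limma). That of Aebp2 read 94.9 and 101 against 151 and 159 (log2 -0.59, adjusted p = 0.0086 by limma). No other probe set of these genes passed. Ezh2, the main methyltransferase, read 4972 and 5049 in Eed-/- cells against 4599 and 4997 in wild type cells (log2 0.06, adjusted p = 0.66 by limma). Suz12, the scaffold subunit, read 8615 and 9208 in Eed-/- against 7849 and 7955 in wild type (log2 0.17, adjusted p = 0.053). Epop, an accessory subunit, was at 1395 and 1838 against 1182 and 800.1 (log2 0.71, adjusted p = 0.058). With equal array medians, or without wild type replicate 1 or either Jarid2-/- array, 1 of these 11 genes was higher. Quantile normalization gave 1 higher and 1 lower gene, the replicate number as a block gave 2 higher, and averaging each gene's probe sets gave 1 lower.

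Among 15 subunits of Polycomb repressive complex 1, which binds the mark that PRC2 leaves, 3 were higher (20%) and none lower. Of all genes 7.88% were higher and 11.1% lower. Bmi1, a subunit that is also called Pcgf4, read 1655 and 1638 in Eed-/- cells against 482 and 366 in wild type cells, 3.88-fold higher (log2 1.93, SE 0.14, adjusted p = 7.7e-05). Bmi1 was higher in Eed-/- than in Ezh2-/- cells as well, where it averaged 553, and than in Jarid2-/- cells, at 333 (log2 differences of 1.55 and 2.26). Kdm2b, which recruits the complex to CpG islands, read 3428 and 3628 in Eed-/- against 2840 and 2492 in wild type (log2 0.40, adjusted p = 0.022 by limma). Cbx2, a reader of the mark, read 1732 and 2061 against 1414 and 1376 (log2 0.43, adjusted p = 0.025 by limma), but only 1 of its 2 probe sets had that sign. Kdm2b and Cbx2 no longer passed without Eed-/- replicate 2 or without wild type replicate 2, which left 1 higher gene, and Kdm2b also without Eed-/- replicate 1. The catalytic subunit gene Rnf2 read 6363 and 6689 in Eed-/- against 6246 and 5659 in wild type (log2 0.13, adjusted p = 0.17).

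Hox genes, which set position along the body axis and are classical Polycomb targets, were measured with 31 members, of which 11 were higher and 1, Hoxd12, was lower in Eed-/- cells. These are 35.5% higher and 3.23% lower, beside 7.88% and 11.1% of all genes. The list's median was 0.12 beside -0.06 over all genes. By cluster, 2 of 9 HoxA, 1 of 9 HoxB, 3 of 6 HoxC and 5 of 7 HoxD genes were higher. Hoxa10 read 203 and 358 in Eed-/- cells against 30.5 and 34.8 in wild type cells, at least 1.9-fold higher (log2 2.56, SE 0.23, adjusted p = 0.00027). Hoxa11 read 178 and 292 in Eed-/- against 32.2 and 30.7 in wild type, at least 1.59-fold higher (log2 2.37, SE 0.20, adjusted p = 0.0002). Hoxd9 read 308 and 463 in Eed-/- against 88.1 and 97.6 in wild type, at least 2.6-fold higher (log2 1.86, SE 0.17, adjusted p = 0.00031). These genes were dim in Eed-/- cells too, around or under the array median of 337, and Hoxd8 and Hoxd10 reached no more than 279 in an Eed-/- array. All 11 higher members had a wild type mean under the controls, and 3 of them (Hoxd1, Hoxd11 and Hoxb2, named after their values were seen) had both means there, as did 15 of the 31. The count of higher members was 7 without Eed-/- replicate 2 or without wild type replicate 1, and 4 when probe sets with a mean signal of 100 or less were left out.

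The same Hox genes were low in the other mutants. Hoxa10 averaged 31.1 in Ezh2-/- and 23.8 in Jarid2-/- cells, and Hoxd9 76.3 and 76.4. The direct contrast with Ezh2-/- put 10 of 31 Hox genes higher and 0 lower in Eed-/-, beside 12.2% of all genes higher and 5.87% lower (18.1% in either direction). The contrast with Jarid2-/- put 14 higher and 0 lower, beside 10.6% and 5.08% (15.7% in either direction). With quantile normalization or equal array medians these counts were 9 or 10 against Ezh2-/- and 11 or 12 against Jarid2-/-.

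Of 23 genes of the germline and of meiosis 10 were higher (43.5%) and 2 lower (8.7%), with a median of 0.12, beside 7.88% and 11.1% of all genes. Sycp1, a protein of the synaptonemal complex that pairs chromosomes in meiosis, read 541 and 608 in Eed-/- cells against 75.4 and 76.3 in wild type cells, at least 3.88-fold higher (log2 2.68, SE 0.11, adjusted p = 5.9e-06). Dazl, an RNA-binding protein of germ cells, read 449.9 and 441 in Eed-/- against 152 and 167 in wild type, 2.8-fold higher (log2 1.40, SE 0.11, adjusted p = 0.00011). Piwil2, which binds small RNAs that silence transposons, read 1194 and 1327 in Eed-/- against 415 and 538 in wild type (log2 1.38, SE 0.13, adjusted p = 0.00031). In each of these genes the Eed-/- arrays lay close together and above both wild type arrays. Rhox6 and Rhox9, homeobox genes of the reproductive cluster on the X chromosome, were higher as well, Rhox6 at 1019.9 and 1718 in Eed-/- against 129 and 151 in wild type (log2 3.11, adjusted p = 0.00012) and Rhox9 at 795 and 1148 against 237 and 258 (log2 1.88, adjusted p = 0.00039). Other higher members, named after their values were seen, were Tex19.1, Ddx4, Tex11, Dmc1 and Rhox5, with log2 differences between 0.76 and 1.59. Stag3 and Dnd1 were lower, with log2 differences of -0.57 and -0.61. The count of higher members stayed at 9 or 10 with each array left out. The count of lower members was 0 without Eed-/- replicate 2, 1 without Eed-/- replicate 1, wild type replicate 2 or either Ezh2-/- array, 3 without either Jarid2-/- array and 4 without wild type replicate 1.

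Against the other mutants 12 of the 23 germline genes were higher and 1 lower than in Ezh2-/-, beside 12.2% and 5.87% of all genes. Against Jarid2-/- 12 were higher and 4 lower, beside 10.6% and 5.08%. Sycp1 averaged 148 in Ezh2-/- and 88.8 in Jarid2-/- cells, so Eed-/- was higher by 1.85 and 2.49 on the log2 scale (adjusted p = 1.7e-05 and 7e-06 by limma). Dmc1, a recombinase, differed from this order: it averaged 547 in Ezh2-/- and 500.4 in Jarid2-/- cells, and Eed-/- cells, at 326 and 319.9, were lower than both.

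**Figure D3:**
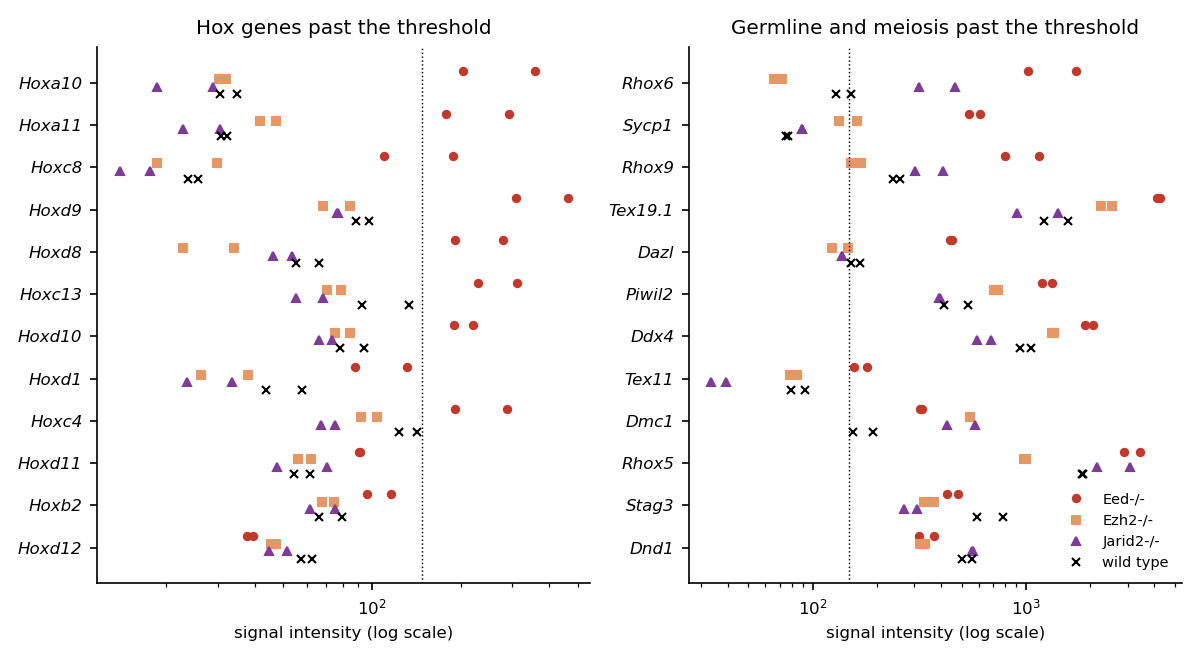
Signal intensity (log scale) in all 8 arrays for the Hox genes (left) and the germline and meiosis genes (right) that passed the threshold between Eed-/- and wild type cells. Red circles are Eed-/-, orange squares Ezh2-/-, purple triangles Jarid2-/- and black crosses wild type arrays, and the dotted line is the highest negative control, 147.91. The red circles of Hoxa10, Hoxd9, Sycp1 and Dazl lie right of all other symbols, and those of Dmc1 do not.

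Regulators of the early lineages moved in a part of their members. Of 45 neural and ectoderm regulators 9 were higher (20%, beside 7.88% of all genes) and 3 lower (6.67%, beside 11.1%), with a median of -0.01. Besides Olig1 and Olig2, Zic1, a zinc finger factor of the dorsal neural tube, read 560.4 and 599 in Eed-/- cells against 74.8 and 54.2 in wild type cells, at least 3.92-fold higher (log2 2.90, SE 0.16, adjusted p = 1.8e-05). Lhx2, a LIM homeobox factor of forebrain and eye, read 219.8 and 228 in Eed-/- against 48.7 and 43.6 in wild type, at least 1.51-fold higher (log2 1.95, adjusted p = 6.3e-05). Sox21, a SoxB factor, read 246 and 228 in Eed-/- against 99.3 and 88.0 in wild type (log2 1.21, adjusted p = 0.00018). Both arrays of Eed-/- lay above both of wild type in these genes. Among the lower members, named after their values were seen, Sox11, a factor of newborn neurons, read 802 and 948 in Eed-/- against 1964 and 1635 in wild type (log2 -1.03, adjusted p = 0.0013 by limma), and Neurod1 and Six3 differed by -0.74 and -0.40.

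Olig1 and Olig2 were not particular to Eed-/- cells. Olig1 averaged 1684 in Ezh2-/- and 4565 in Jarid2-/- cells, and Eed-/- was above Ezh2-/- (log2 1.21, adjusted p = 0.0032) and did not differ past the threshold from Jarid2-/- (log2 -0.22, adjusted p = 0.53 by limma). Olig2 averaged 971 and 1832 in these groups, and Eed-/- lay between them (log2 0.48 above Ezh2-/- and -0.43 from Jarid2-/-, adjusted p = 0.0076 and 0.014 by limma). Zic1 instead averaged 194 in Ezh2-/- and 81.2 in Jarid2-/- cells, and Eed-/- cells were higher than both, by 1.51 and 2.62.

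Of 28 markers of primitive and visceral endoderm, the yolk sac lineages, 11 were higher (39.3%, beside 7.88% of all genes) and 2 lower (7.14%, beside 11.1%) in Eed-/- cells, with a median of 0.13. The count of lower members was 0 without Eed-/- replicate 1, 1 without wild type replicate 2 or either Ezh2-/- array, and 4 without Eed-/- replicate 2. Sox7, an endoderm and endothelial factor, read 348 and 289 in Eed-/- against 50.6 and 42.8 in wild type, at least 2.15-fold higher (log2 2.41, SE 0.23, adjusted p = 0.00033). Apoa2, an apolipoprotein secreted by visceral endoderm and liver, read 721 and 549 in Eed-/- against 125 and 126 in wild type, at least 4.29-fold higher (log2 2.19, SE 0.13, adjusted p = 2.9e-05). Foxa1, a pioneer factor, and Dab2, an endocytic adaptor, were higher by 1.56 and 1.12, and the basement membrane chain Lama1 by 0.95. Sox7, Apoa2 and Lama1 were brighter still in Ezh2-/- cells, at means of 655, 1625 and 3105, and Eed-/- was lower than Ezh2-/- in all 3 (log2 differences of -1.01, -1.35 and -1.39). Setting aside the genes of chromosomes 1, 8, 11 and 19, described below, left 7 higher members of the list.

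Of 38 markers of primitive streak and mesoderm 10 were higher (26.3%, beside 7.88% of all genes) and 3 lower (7.89%, beside 11.1%), with a median of -0.03. The count of lower members was 0 without Eed-/- replicate 1, 1 without Eed-/- replicate 2 or either Ezh2-/- array, and 1 with quantile normalization. Meis1, a partner of Hox proteins, read 397 and 398 in Eed-/- cells against 86.9 and 74.8 in wild type cells, at least 2.69-fold higher (log2 2.10, SE 0.14, adjusted p = 4.9e-05). Isl1, a LIM homeobox factor of heart and motor neurons, read 175 and 233 in Eed-/- against 79.9 and 69.5 in wild type (log2 1.27, adjusted p = 0.00082), and Twist1, a mesenchymal factor, 318 and 320 against 145 and 169.8 (log2 0.96, adjusted p = 0.00072). Gata3, also a trophectoderm factor, read 232 and 397 in Eed-/- against 99.9 and 28.3 in wild type (log2 2.16, adjusted p = 0.0066), a call that was lost without Eed-/- replicate 2. Without that array only 5 members of the list were higher. Of 19 trophectoderm markers 4 were higher (21.1%, beside 7.88% of all genes) and 1, Krt19, lower (5.26%, beside 11.1%). The count of higher trophectoderm markers fell without Eed-/- replicate 2 or without wild type replicate 2.

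Core pluripotency genes did not pass the threshold. Pou5f1, which encodes OCT4, read 15152 and 14497 in Eed-/- cells against 15028 and 13541 in wild type cells (log2 0.06, adjusted p = 0.63 by limma). Sox2 and Zfp42 differed by 0.05 and -0.03 and Nanog by 0.29 (adjusted p = 0.63, 0.77 and 0.11 by limma). Of the 26 naive pluripotency genes 7 were higher (26.9%, beside 7.88% of all genes) and 1, Klf2, lower (3.85%, beside 11.1%), with a median of 0.21. Dppa3, also called Stella, an oocyte and germ cell factor that protects methylation marks, read 4971 and 5191 in Eed-/- against 1428 and 2358 in wild type, 2.68-fold higher (log2 1.46, SE 0.19, adjusted p = 0.0016). Tbx3, a T-box factor, read 4050 and 4153 in Eed-/- against 1758 and 1939 in wild type (log2 1.14, adjusted p = 0.00022), although only 1 of its 2 probe sets had that sign, and Klf4, a reprogramming factor, 7301 and 8702 against 3848 and 4497 (log2 0.94, adjusted p = 0.0018). Klf2, a related factor on chromosome 8, read 8374 and 8198 in Eed-/- against 10707 and 12150.1 in wild type (log2 -0.46, adjusted p = 0.0024). Of 13 primed pluripotency genes 3 were higher (23.1%, beside 7.88% of all genes) and none lower (11.1% of all genes). The higher count fell without Eed-/- replicate 1 and without wild type replicate 2. Fgf5 and Otx2 both differed by -0.01.

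Genes of DNA methylation were higher in 6 of 15 (40%, beside 7.88% of all genes) and lower in 1 (6.67%, beside 11.1%), with a median of 0.25. Besides Dppa3, the de novo methyltransferase gene Dnmt3a read 4965 and 3779 in Eed-/- cells against 2480 and 2568 in wild type cells (log2 0.78, SE 0.14, adjusted p = 0.0065), with all 5 probe sets of that sign. Dnmt3b read 11773 and 11505 in Eed-/- against 10186 and 9291 in wild type (log2 0.26, adjusted p = 0.012), and Hells, a chromatin remodeler, was lower with a log2 difference of -0.28. The Dnmt3b call was lost without Eed-/- replicate 1 or wild type replicate 2, and that of Hells without Eed-/- replicate 1. The count of higher members was 3 without either Eed-/- array and 2 without wild type replicate 2.

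At the imprinted Dlk1-Dio3 region of chromosome 12, the maternally expressed noncoding RNAs were lower in Eed-/- cells. Meg3 read 1475 and 1202 in Eed-/- arrays against 7063 and 8553 in wild type arrays, 5.83-fold lower (log2 -2.53, SE 0.14, adjusted p = 2.4e-05). Rian read 203 and 181 in Eed-/- against 1036 and 1080 in wild type, 5.51-fold lower (log2 -2.37, SE 0.12, adjusted p = 1.2e-05). All 5 Meg3 and all 3 Rian probe sets had that sign. The paternally expressed Dlk1 read 176 and 159 in Eed-/- against 148 and 138 in wild type, close to the controls (log2 0.21, adjusted p = 0.24 by limma). Of the 10 measured genes of the region and its flanks 2 were higher and 2 lower (20% each), beside 7.88% and 11.1% of all genes. The lower ones were Meg3 and Rian, and both higher ones were flanking genes. Evl, an actin regulator near the imprinted genes, was higher (1099 and 1086 in Eed-/- against 591 and 669 in wild type, log2 0.78, adjusted p = 0.0045), and Yy1, a zinc finger factor, passed narrowly (log2 0.23, adjusted p = 0.05 by limma) and was lost without either Eed-/- array, wild type replicate 2 or either Ezh2-/- array. The loss was partial: Meg3 averaged 117 in Ezh2-/- cells, and Eed-/- was above that by 3.34 on the log2 scale (adjusted p = 1.9e-06 by limma). Jarid2-/- cells, at a mean of 809.5, were nearer, with Eed-/- above them by 0.71 (adjusted p = 0.011 by limma).

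Of 23 other imprinted genes listed as maternally expressed 3 were higher and 3 lower (13% each). Of 19 listed as paternally expressed likewise 3 and 3 passed (15.8% each), beside 7.88% of all genes higher and 11.1% lower. The parental copy is that of the lists, was not measured here, and can differ by tissue or transcript. Grb10, an inhibitor of insulin and growth factor signalling, read 8249 and 8949 in Eed-/- cells against 1991 and 2313 in wild type cells, 4-fold higher (log2 1.99, SE 0.12, adjusted p = 2.9e-05). Cdkn1c, the cell cycle inhibitor p57, read 3535 and 4055 in Eed-/- against 1200.5 and 1137 in wild type, 3.25-fold higher (log2 1.68, SE 0.11, adjusted p = 5e-05). Plagl1, a zinc finger gene of the paternal list, read 4311 and 7729 in Eed-/- against 2215 and 1879 in wild type (log2 1.49, SE 0.23, adjusted p = 0.0035). In these 3 genes the groups did not overlap, and each was also higher in Eed-/- than in Ezh2-/- and Jarid2-/- cells. Igf2, the fetal growth factor, read 2319 and 6709 in Eed-/- against 1070.4 and 1238 in wild type (log2 1.76, SE 0.41, adjusted p = 0.018), and this call was lost without Eed-/- replicate 2 or without wild type replicate 1. Lower imprinted genes included Sgce, a sarcoglycan, at 189 and 261 in Eed-/- against 522 and 518 in wild type (log2 -1.17), and Ddc, the enzyme that makes dopamine and serotonin, at 922 and 901 against 1897 and 1750 (log2 -0.99).

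**Figure D4:**
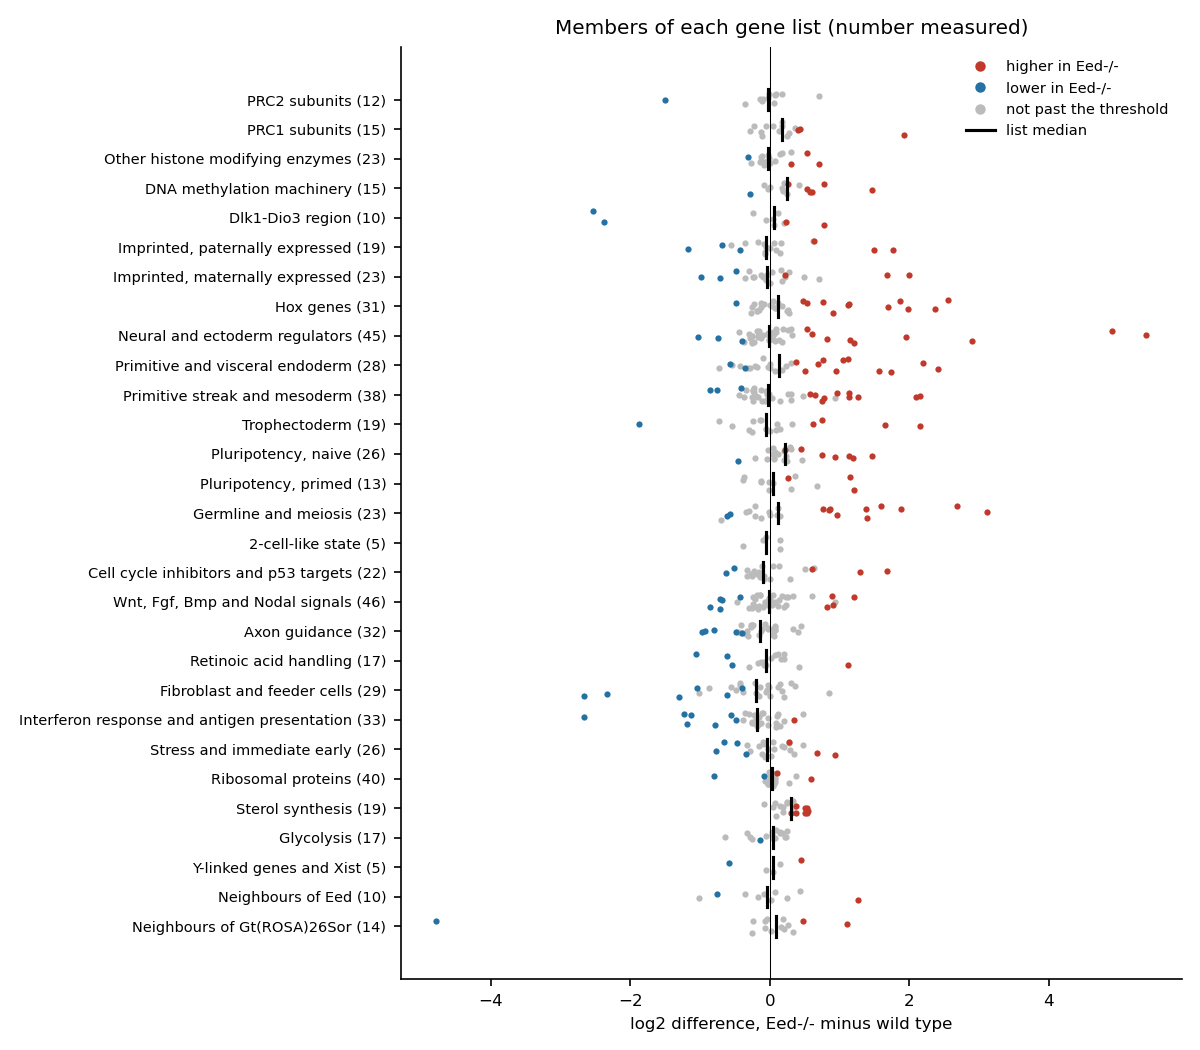
Each point is a measured member of a gene list, placed by its log2 difference, Eed-/- minus wild type. Red points were higher and blue points lower in Eed-/- at an adjusted p under 0.05, grey points did not pass, and the black bar is the list median. Hox genes and germline genes have red points reaching 2.56 and 3.11, and fibroblast and interferon lists have blue points reaching -2.67 and -2.66.

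Markers of fibroblasts, the usual feeder cells of stem cell cultures, were lower in 6 (20.7%) and higher in none of 29 members, with a median of -0.20. Of all genes 11.1% were lower and 7.88% higher. Besides the collagens, Vim, the mesenchymal intermediate filament vimentin, read 4469 and 6081 in Eed-/- cells against 11789 and 9803 in wild type cells (log2 -1.04, SE 0.14, adjusted p = 0.0019), and Acta2, smooth muscle actin, 932 and 1999 against 3959 and 2878 (log2 -1.30, adjusted p = 0.018). Summed over the list, signal was 30399 and 40046 in the Eed-/- arrays, 21047 and 21189.7 in the Ezh2-/- arrays, 22181 and 24907 in the Jarid2-/- arrays and 51620.2 and 45055 in the wild type arrays. Against Ezh2-/- and Jarid2-/- cells, 14 and 13 of the 29 were higher in Eed-/-, beside 12.2% and 10.6% of all genes, and 0 were lower. Of the 29 members, 9 had both the Eed-/- and the wild type mean under the controls. How the share of such cells bears on the lower matrix genes was not tested. Fewer cells of a type and less RNA per cell cannot be told apart in these bulk samples. The Acta2 call was lost without Eed-/- replicate 1 or wild type replicate 1.

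Of 33 interferon response and antigen presentation genes 7 were lower (21.2%, beside 11.1% of all genes) and 1 higher (3.03%, beside 7.88%), with a median of -0.19. Gbp2b, a guanylate-binding protein induced by interferon, read 247 and 359 in Eed-/- cells against 2573 and 1510.2 in wild type cells, 6.74-fold lower (log2 -2.66, SE 0.24, adjusted p = 0.00028). Gbp2, a relative, read 591 and 876 in Eed-/- against 2179 and 1335 in wild type (log2 -1.23, adjusted p = 0.01), and Ifit2, an antiviral gene, 111 and 93.6 against 260.2 and 241 (log2 -1.18, adjusted p = 0.00051). Eed-/- signals of Gbp2b exceeded those of Ezh2-/- and Jarid2-/- cells, which averaged 26.7 and 26.8, under the controls. Without Eed-/- replicate 1 only 3 members were lower, and Gbp2 no longer passed.

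Genes of sterol synthesis were higher in 8 of 19 (42.1%, beside 7.88% of all genes) and lower in none (11.1% of all genes). The list had the highest median of the 29 lists, 0.31, and its differences were small. Sqle, squalene epoxidase, read 3639 and 4203 in Eed-/- cells against 2655 and 2680 in wild type cells (log2 0.55, SE 0.08, adjusted p = 0.0033). Mvk, mevalonate kinase, read 568 and 594 in Eed-/- against 381 and 433 in wild type (log2 0.50, adjusted p = 0.011). The count was 1 without Eed-/- replicate 2, 5 without either Ezh2-/- array and 2 when only the 4 arrays compared were fitted.

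Direct contrasts with the other mutants showed where Eed-/- cells stood apart. Against Ezh2-/- cells 3798 probe sets (16.8%) passed, 2513 (11.1%) higher and 1285 (5.68%) lower in Eed-/-, and against Jarid2-/- cells 3368 (14.9%), 2239 (9.9%) higher and 1129 (4.99%) lower. The share of higher calls depended on the scaling: against Ezh2-/- it was 66.2%, 54.6% with quantile normalization and 45% with equal array medians, and against Jarid2-/- it was 66.5%, 54.3% and 47.9%. Equal medians moved the median over all genes to -0.10 in the first and -0.07 in the second contrast, beside -0.01 and 0.00. In all 3 contrasts of Eed-/- 276 genes (2.23%) were higher and 85 (0.686%) lower. Both counts come from the fit without further normalization, and how they depend on the scaling is not given here. Nrk, a kinase gene of the placenta on the X chromosome, read 1618 and 2458 in Eed-/- cells against 427 and 458 in wild type cells, with means of 333 in Ezh2-/- and 364 in Jarid2-/- cells (log2 2.13 over wild type, SE 0.19, adjusted p = 0.00023). Crxos, Srgn, Hoxd9, Sycp1 and Igf2, described above, belong to the same class.

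On the lower side of all 3 contrasts stood Gt(ROSA)26Sor and Eed, followed by Erdr1, Gli1, Pisd-ps3 and Plekha4. Gli1, the transcription factor that reads out Hedgehog signalling, was at 343 and 261 in Eed-/- cells against 772 and 712 in wild type cells, and averaged 689.8 in Ezh2-/- and 706 in Jarid2-/- cells (log2 -1.26 from wild type, SE 0.13, adjusted p = 0.00052). Erdr1, a differentiation regulator, was at 3348 and 3004 in Eed-/- against 7086 and 8934 in wild type (log2 -1.32, SE 0.10, adjusted p = 0.00011). Plekha4, a pleckstrin-homology adaptor, read 183 and 175 in Eed-/- against 609 and 577 in wild type (log2 -1.64, SE 0.10, adjusted p = 2.9e-05), with all 4 probe sets of that sign. In these 3 genes both Eed-/- arrays were below every other array group's mean, which their selection required.

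Of 10 measured neighbours of Eed on chromosome 7, Ctsc, a lysosomal protease, was higher (1958 and 2375 in Eed-/- against 844 and 947 in wild type, log2 1.26, adjusted p = 0.00037 by limma) and Dlg2 lower, with both means under the controls. That is 10% of the list each way, beside 7.88% of all genes higher and 11.1% lower. Prss23, a serine protease, read 849 and 2061 in Eed-/- against 3368 and 2135 in wild type (log2 -1.01, adjusted p = 0.075).

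Genes of whole chromosomes also differed together. Among genes with a mean signal above 500, the 339 on chromosome 8 had a median log2 difference of -0.34, a linear ratio of 0.79, and 90% of them were below 0. Of these genes 190 were lower and 8 higher in Eed-/- cells, where 654 of all 5929 genes above that signal (11%) were lower and 658 (11.1%) higher. Medians were -0.17 on chromosome 1, -0.18 on chromosome 19 and -0.13 on chromosome 11, and between -0.03 and 0.09 on all others. Between single Eed-/- and wild type arrays the median of chromosome 8 lay between -0.37 and -0.34. Chromosomes 1, 8, 11 and 19 together held 23.3% of these genes and 67.6% of the lower calls: 442 of 1380 genes (32%) were lower there, and 212 of 4549 (4.66%) elsewhere. On the other chromosomes 613 genes (13.5%) were higher and the median was 0.06.

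The medians of chromosome 8 were closer to 0 between the mutants. Eed-/- minus Ezh2-/- gave a chromosome 8 median of -0.05 and Eed-/- minus Jarid2-/- one of -0.07, and each mutant minus the same wild type arrays gave -0.31 for Ezh2-/- and -0.30 for Jarid2-/-. On chromosomes 1, 11 and 19 the medians of Eed-/- minus Ezh2-/- were 0.07, 0.02 and 0.01. Those of Eed-/- minus Jarid2-/- were 0.08, -0.04 and 0.02. Minus wild type, the same chromosomes gave -0.22, -0.14 and -0.20 for Ezh2-/- and -0.23, -0.07 and -0.19 for Jarid2-/-. The contrasts with wild type share the wild type arrays. DNA copy number was not analysed here, and the part of these chromosomes in any single lower gene was not tested. Of the genes described above, Col1a1, Igfbp3, Krt19 and Ddc are on chromosome 11, Acta1, Cpe and Klf2 on chromosome 8, and Acta2, Hells and Ifit2 on chromosome 19, and these were lower. On the same chromosomes 2210409E12Rik, Grb10, Meis1, Tex19.1, Cbx2 and Hoxb2 of chromosome 11 and Apoa2 of chromosome 1 were higher. Gt(ROSA)26Sor, Meg3, Rian, Gbp2b and Dpys lie on other chromosomes.

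**Figure D5:**
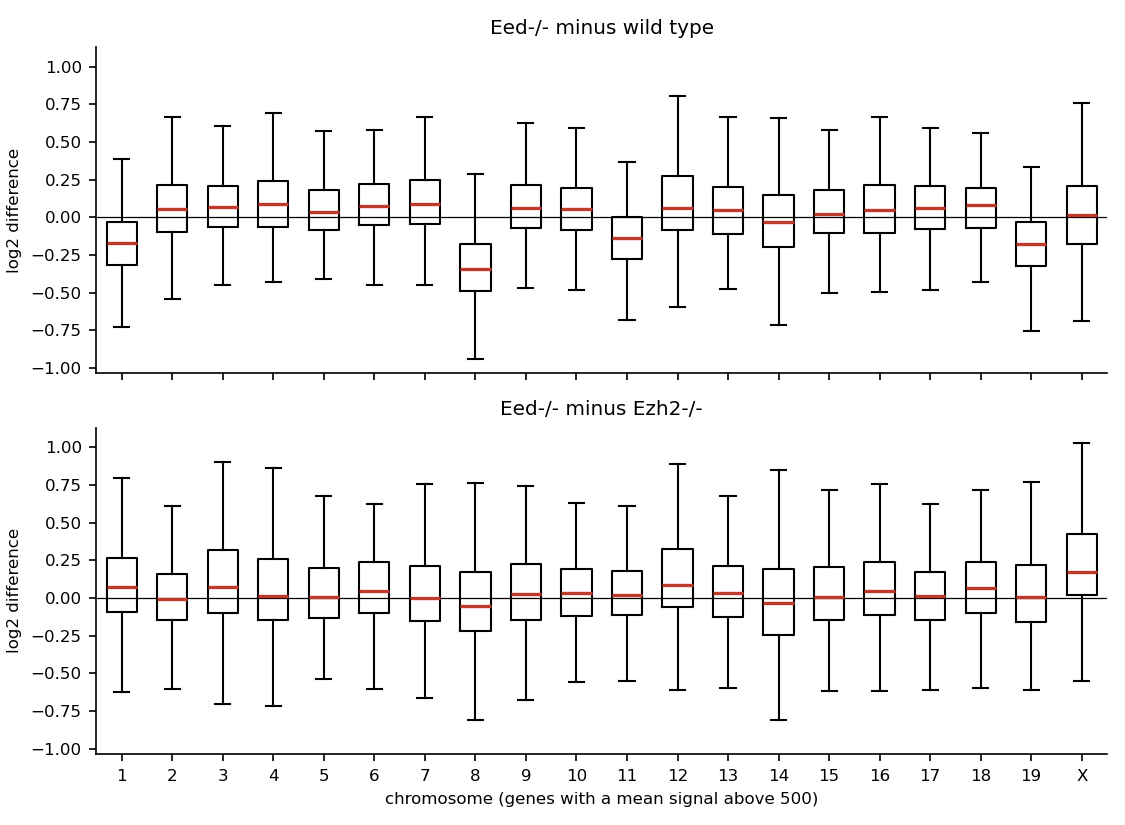
Log2 differences of genes with a mean signal above 500, by chromosome, for Eed-/- minus wild type (top) and Eed-/- minus Ezh2-/- (bottom). Boxes span the quartiles, red lines are medians and whiskers reach the last gene within 1.5 box lengths, with more distant genes not drawn. Chromosome 8 is centred on -0.34 in the top panel and on -0.05 in the bottom panel.

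Promoters of the genes that rose were richer in CpG than those of all measured genes. RefSeq promoters matched 82.1% of the higher, 80.6% of the lower and 81.9% of all measured genes once the genes of chromosome 18, and those with no chromosome in the annotation, were set aside. A ratio of observed to expected CpG of 0.6 or more was found in 571 of 775 higher genes (73.7%), in 623 of 1081 lower genes (57.6%) and in 61.3% of all measured genes. The median ratios were 0.79, 0.67 and 0.71. With a ratio of 0.75 the shares were 54.5%, 40.2% and 43.9%. These are descriptions with no test, and the sets were not matched for signal. Both means were under the controls in 35 of 977 higher, 314 of 1371 lower and 2700 of all 12393 measured genes. How signal level bears on the CpG shares was not tested. Single genes went either way: among the higher genes the promoters of Crxos, Hoxd8 and Srgn had ratios of 0.11, 0.37 and 0.42, beside 0.79 to 0.97 in the 4 printed above, and among the lower genes Plekha4 had 1.02, beside 0.60 in Meg3 and 0.07 in Gbp2b.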

How the data were processed

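The deposited series matrix gives one signal intensity per probe set and array on a linear scale. How the authors normalized these values is not stated in the labels or files. A second deposited table, made with dChip, has 12 columns that match no sample label and was not used. Each array was assigned to its genotype from its description. The 64 array controls were dropped, and the signals, floored at 1 and offset by 16, were put on the log2 scale. No further normalization was applied. With R 4.3.3, limma 3.58.1 (lmFit, then eBayes with an intensity trend) fitted a mean per genotype to all 8 arrays, with 4 residual and 5.02 prior degrees of freedom, and the contrasts Eed-/- minus wild type, minus Ezh2-/- and minus Jarid2-/- were tested two-sided, adjusted by Benjamini and Hochberg over 22626 probe sets. The number of arrays limits the precision: the median SE was 0.12.

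The platform annotation gave 1 symbol to 20380 probe sets, several to 691 and none to 1555, and only the first kind is named. The probe set brightest over the 8 arrays stood for each of 12393 genes. Chromosomes and promoters are those of RefSeq on GRCm38.p6. Over all genes only 79.7% had a promoter, and genes without one were not compared. Setting aside the genes of chromosome 18 or of no annotated chromosome raised that share to 81.9%. It left the CpG shares at 73.7% of higher, 57.6% of lower and 61.3% of all measured genes, as before.

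Members, the 29 gene lists and the tests were chosen with earlier results of these data known. Named genes were Eed and PRC2 subunits, the Dlk1-Dio3 region, the 14 largest increases and 14 largest decreases past the threshold with groups apart and the brighter mean above 337, up to 5 members of each list with the smallest p, neighbours of Eed and Gt(ROSA)26Sor, and the genes apart from all 3 other groups. The Eed-/- against wild type fit was tested on simulated data (22626 probe sets) with independent normal noise. Recovered were 54% of 50 probe sets changed 1.5-fold, 87% of 100 changed 2-fold and 96% of 50 changed 4-fold, and 16 of 178 calls were false. The changes were placed only in brighter probe sets, and far fewer were changed than passed in the data. The rates therefore do not cover dim genes, such as those under the controls in wild type cells. Alternatives were quantile normalization, equal array medians, other offsets, a signal filter, no trend, array weights, only the 4 arrays compared, the replicate number as a block, the mean over probe sets, and leaving out each array.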

Additional observations from a re-analysis of the deposited data

How the results depend on the processing

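Eed was lower in Eed-/- cells under each alternative, between -1.59 and -1.42 with an array left out. Leaving out each array in turn gave 1801 to 4283 probe sets past the threshold against wild type (820 to 1836 higher, 981 to 2447 lower), 1373 to 4446 against Ezh2-/- (961 to 2900 higher, 412 to 1547 lower) and 1360 to 4045 against Jarid2-/- (993 to 2659 higher, 367 to 1386 lower). Fitting only the 4 arrays of Eed-/- and wild type gave 2469 probe sets, 1078 higher and 1391 lower, with fewer degrees of freedom. Lower calls were 2383 against Ezh2-/- and 1896 against Jarid2-/- with equal array medians, and 2139 against Ezh2-/- with array weights; the cause was not tested. Quantile normalization gave 1834 higher and 1937 lower against wild type. The replicate number as a block gave 5275 probe sets against wild type, 4824 against Ezh2-/- and 4318 against Jarid2-/-. The labels do not say that a replicate number marks a shared culture, and deviations of same-numbered arrays correlated by 0.050 between Eed-/- and wild type, 0.008 between Eed-/- and Ezh2-/-, 0.244 between Eed-/- and Jarid2-/-, 0.411 between Jarid2-/- and wild type, 0.008 between Ezh2-/- and wild type and 0.022 between Ezh2-/- and Jarid2-/-. With 2 arrays a group this does not settle whether the numbers pair the arrays, and the fit without the block was kept. Alternatives on chromosomes were chosen after seeing the data: leaving out the genes of chromosomes 1, 8, 11 and 19 left 1465 lower probe sets against wild type, fewer because those genes were not counted, and leaving out chromosome 8 alone kept the count within 1.5-fold. The first of these left 1 lower imprinted gene listed as maternally expressed, 2 lower axon guidance genes and 3 lower Wnt, Fgf, Bmp and Nodal signals. Over genes with a signal above 100 the median of chromosome 8 was -0.29. Of 130 named genes past the threshold besides Eed, 105 still passed with each other way of processing, 85 also whichever array was left out, and none changed sign. Depth is set by signal over background: genes under the controls have no exact fold.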

Other observations

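Of 32 axon guidance genes 5 were lower (15.6%, beside 11.1% of all genes) and none higher (7.88% of all genes) in Eed-/- cells, among the lower Ntn1, a secreted guidance cue, at 781 and 859 in Eed-/- against 1594 and 1550 in wild type cells (log2 -0.93, SE 0.11, adjusted p = 0.0012 by limma). Ntn1 is on chromosome 11, averaged 1847 in Ezh2-/- and 3502 in Jarid2-/- cells, and was lower in Eed-/- than in both (log2 differences of -1.16 and -2.07). The count of lower axon guidance genes was 2 without either Eed-/- array and 3 without either Ezh2-/- array. Quantile normalization gave 2 higher and 4 lower, and equal array medians, the replicate block, or leaving out wild type replicate 1 or either Jarid2-/- array gave 1 higher. Of 46 Wnt, Fgf, Bmp and Nodal signals 4 were higher (8.7%, beside 7.88% of all genes) and 5 lower (10.9%, beside 11.1%). Sfrp1, a Wnt antagonist, read 1344 and 1342 in Eed-/- against 688 and 828 in wild type (log2 0.82, adjusted p = 0.0038 by limma), and the Bmp antagonist Grem1 136 and 134 against 222 and 230.2 (log2 -0.68, adjusted p = 0.0028). Without Eed-/- replicate 2 or wild type replicate 2 the higher count was 2, and without Eed-/- replicate 1 or wild type replicate 1 the lower count was 3.

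Of 22 genes in a list of cell cycle inhibitors and p53 targets 3 were higher (13.6%, beside 7.88% of all genes) and 2 lower (9.09%, beside 11.1%). The list also holds the cyclin gene Ccnd2, which is no inhibitor and is counted among the higher members. Ccnd2, a D-type cyclin, read 1297 and 1262 in Eed-/- cells against 587 and 442 in wild type cells (log2 1.30, SE 0.16, adjusted p = 0.0014), with all 7 probe sets of that sign, and averaged 289 in Ezh2-/- and 83.9 in Jarid2-/- cells. Of the p53 targets in the list, Ccng1 and Mdm2 were lower, with log2 differences of -0.63 and -0.52, and neither passed without Eed-/- replicate 1. Sesn1, another p53 target of the list, was higher (744 and 880 in Eed-/- against 477 and 574 in wild type, log2 0.61, adjusted p = 0.012 by limma). Its call was lost without Eed-/- replicate 2. The p53 target Pmaip1, described above and not in this list, was also higher (log2 2.47). Of 17 genes of retinoic acid handling 1 was higher (5.88%, beside 7.88% of all genes) and 3 lower (17.6%, beside 11.1%). All 3 lower ones lie on chromosomes 1, 8, 11 or 19. The higher one, Crabp2, which carries retinoic acid into the nucleus, read 783 and 650.1 in Eed-/- against 355 and 288 in wild type (log2 1.12, adjusted p = 0.0011 by limma). Among the lower ones Cyp26a1, which degrades retinoic acid, read 98.9 and 114 against 292 and 195 (log2 -1.06, adjusted p = 0.0039 by limma). Of 26 stress and immediate early genes 3 were higher (11.5%, beside 7.88% of all genes) and 4 lower (15.4%, beside 11.1%). Ier2 led the lower ones, at 3096 and 3102 in Eed-/- against 5320 and 5243 in wild type (log2 -0.77, adjusted p = 0.0007 by limma). The lower count fell without either Eed-/- array, wild type replicate 1 or either Ezh2-/- array. None of 5 genes of the 2-cell-like state passed, where 18.9% of all genes did, and with the mean over probe sets 1 was higher. Of 17 glycolysis genes 1 was lower (5.88%, beside 11.1% of all genes), and this count depended on single arrays: 4 were higher and 0 lower without wild type replicate 2, 4 were lower without wild type replicate 1, and none passed without Eed-/- replicate 1 or either Ezh2-/- array. Of 40 ribosomal protein genes 2 were higher and 2 lower (5% each), beside 7.88% and 11.1% of all genes. The lower count fell without either Eed-/-, wild type or Ezh2-/- array and the higher count without Eed-/- replicate 1. The mean over probe sets gave 6 higher. Among 23 other histone modifying enzymes the methyltransferase gene Kmt2c led the higher ones, at 1021 and 1017 in Eed-/- against 589 and 658 in wild type (log2 0.70, adjusted p = 0.0022 by limma). In that list 3 were higher (13%, beside 7.88% of all genes) and 1, Kdm5b, lower (4.35%, beside 11.1%). Without Eed-/- replicate 1 these counts were 1 and 0, and Kdm5b was also lost without wild type replicate 2. The Y-linked Eif2s3y read 2268 and 2117 in Eed-/- and 1627 and 1567 in wild type cells, and averaged 16.7 in Ezh2-/- and 502 in Jarid2-/- cells, with a log2 difference of 6.08 between Eed-/- and Ezh2-/-.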
